A study of Mus musculus with 16 samples.

Results

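The markers of mesothelium and simple epithelium described here are 10 genes followed by name through 16 RNA-seq libraries of immortalized mouse embryonic fibroblasts: Upk3b, Upk1b, Msln, Lrrn4, Krt7, Krt8, Krt18, Krt19, Bnc1 and Wt1. They are 10 of 24485 genes with a deposited value, and every one was found by its gene ID. They were chosen by measured values of these libraries: the uroplakin genes stood among the largest differences between the lines at day 16, and the set was drawn up to ask how such markers move between exp libraries. The levels, line differences, joint movement and exp slopes below are therefore descriptions. Where the fit across all genes called a member, the call is given as what that fit returned and supports nothing.

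The libraries come from 2 lines, exp and ctl. Cells of each carry R26M2rtTA/+, a doxycycline-dependent transactivator at the Rosa26 locus, and TetOcre, a Cre recombinase gene that it switches on. The exp line is Sdhcfl/fl and the ctl line Sdhcfl/wt, so Cre can remove both copies of Sdhc in exp and 1 copy in ctl. Both lines received doxycycline, and RNA was taken at days 0, 5, 9, 12, 16 and 20. Day 16 was sampled in biological triplicate in each line (replicates 1 to 3), and every other day has a single library. With 1 line per genotype, a difference between lines cannot be told apart from a difference between genotypes, and p-values measure only the spread between libraries of these lines. The libraries held 18121520 to 42486438 reads in genes. Sdhc, which encodes a membrane anchor of succinate dehydrogenase, had 87.8 FPKM at exp day 0 and 36.9, 32.8 and 26.5 in the day 16 exp replicates, and in ctl 90.5 at day 0 and 47.5 to 50.5 at day 16. FPKM scales the reads of a gene by its length and by the reads of the library, so levels can be compared between genes. Day 16 replicates 2 and 3 stood apart from replicate 1 in each line: across genes they correlated at 0.995 with each other and at 0.952 and 0.954 with replicate 1 in exp (0.997, 0.979 and 0.981 in ctl), while exp replicate 1 and exp day 20 correlated at 0.993.

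Mesothelium is the sheet of flat cells that lines the body cavities and covers the organs in them. It forms from mesoderm, and unlike most epithelia it keeps vimentin and other mesenchymal proteins beside the keratins of simple epithelia. Keratins work as pairs of a type II chain (Krt7, Krt8) and a type I chain (Krt18, Krt19). Embryonic fibroblasts are grown from dissociated embryos, whose tissues include mesothelium, and the lines are labelled only as fibroblasts.

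Promoters are shown for members whose mRNAs moved together in the exp line. Of the 10 genes, 6 (Upk3b, Lrrn4, Krt7, Krt8, Krt18 and Bnc1) had an entry in the RefSeq promoter table, on build GRCm38.p6, with 250 bases before and 50 after the annotated start. Windows of the uroplakin gene Upk3b (chr5:136038246-136038545, plus strand) and of Lrrn4 (chr2:132880813-132881112, minus strand) are printed because these genes had nearly the same profile. Those of Krt8 (chr15:102004293-102004592, minus strand) and Krt18 (chr15:102027966-102028265, plus strand) are printed because their products pair, and because the genes lie next to each other with starts 23.9 kb apart in mm9. Each is written 5′ to 3′ on the gene's strand, with capitals for any match to 5 motifs searched on either strand.
Upk3b: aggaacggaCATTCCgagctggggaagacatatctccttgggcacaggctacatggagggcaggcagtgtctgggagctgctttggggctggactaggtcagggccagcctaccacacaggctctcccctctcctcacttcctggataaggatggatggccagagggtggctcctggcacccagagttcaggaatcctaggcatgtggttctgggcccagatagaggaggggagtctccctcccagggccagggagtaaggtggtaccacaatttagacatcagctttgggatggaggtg
Lrrn4: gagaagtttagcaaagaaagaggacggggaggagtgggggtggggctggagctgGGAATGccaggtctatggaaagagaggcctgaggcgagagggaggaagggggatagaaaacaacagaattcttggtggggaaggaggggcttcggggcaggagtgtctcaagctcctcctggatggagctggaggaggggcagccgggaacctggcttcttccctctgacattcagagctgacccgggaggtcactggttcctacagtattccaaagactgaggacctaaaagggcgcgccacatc
Krt8: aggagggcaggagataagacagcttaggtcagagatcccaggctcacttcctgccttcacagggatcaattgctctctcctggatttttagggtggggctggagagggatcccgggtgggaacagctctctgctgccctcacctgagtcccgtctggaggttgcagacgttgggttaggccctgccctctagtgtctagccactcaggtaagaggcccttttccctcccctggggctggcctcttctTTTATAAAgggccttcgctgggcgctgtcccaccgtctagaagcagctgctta
Krt18: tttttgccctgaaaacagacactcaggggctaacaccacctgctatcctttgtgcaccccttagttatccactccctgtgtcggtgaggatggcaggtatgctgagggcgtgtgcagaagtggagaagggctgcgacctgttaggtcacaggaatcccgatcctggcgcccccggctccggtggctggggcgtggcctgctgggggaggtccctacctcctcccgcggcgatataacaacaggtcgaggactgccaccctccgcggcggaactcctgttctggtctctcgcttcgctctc
The capitals in Upk3b and Lrrn4 are the TEAD motif GGAATG (written CATTCC on the other strand), at window bases 10 to 15 and 55 to 60. Those in Krt8 are the letters TATAAA of the TATA box, matched on each strand at bases 248 to 253 and 250 to 255. The Krt8 matches begin 3 and 1 bases before the annotated start and run across it. Krt18 held none of the 5 motifs. Over the 32851 promoters of the same length, 14.7% held GGAATG, 13.6% TATAAA, 35.7% the GC box GGGCGG, 7.81% the AP-1 motif TGANTCA and 5.55% the EGR and WT1 motif GCGNGGGCG. The window of Krt7 held 4 GC boxes and that of Bnc1 6, which were the only members of the 6 with that motif. The windows of Krt7, Krt8 and Bnc1 held no GGAATG. Bnc1, whose window is not printed, correlated (Pearson) over the 8 exp libraries at 0.995 with Upk3b and 0.997 with Lrrn4. Upk3b and Lrrn4 correlated at 0.993 with each other, so sharing the profile did not go with sharing this motif. A match is a run of letters and no evidence of binding.

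The surface proteins of the set were led by Upk3b. It encodes a uroplakin, a membrane protein family first known from the bladder lining, and is a common marker of mesothelial cells (ID 100647; mm9 chromosome 5 from 136514366 to 136521173, plus strand). In exp it had 84.8, 103, 50.3 and 127 FPKM at days 0, 5, 9 and 12. At day 16 it had 455 FPKM in replicate 1, 22.9 in replicate 2 and 28.0 in replicate 3, and at day 20 it had 433. The exp libraries thus ran from 22.9 to 455 FPKM, a 19.9-fold range, with the extremes on the same day. In ctl every library was below 1 FPKM, from 0.115 at day 9 to 0.611 at day 5, and the lines did not overlap. These values rest on 1828 to 27628 reads in exp and on 6 to 36 in ctl.

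Upk1b encodes a tetraspanin that partners uroplakins (ID 22268; chromosome 16 from 38773297 to 38800316, minus strand). Its exp values were 31.3, 27.5, 13.2 and 19.5 FPKM at days 0 to 12, 110.1, 10.2 and 12.3 in the day 16 replicates and 91.6 at day 20. The high and low libraries were those of Upk3b. In ctl it was listed at 0 in 4 libraries and reached 0.215 FPKM (11 reads) at day 5. Where it was listed at 0, counting error alone allowed up to 3 reads, or 0.0486 to 0.0664 FPKM.

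Lrrn4, a leucine-rich repeat membrane protein used as a mesothelial marker (ID 320974; chromosome 2 from 132694041 to 132706627, minus strand), followed Upk3b most closely of the surface genes. It had 29.6, 43.2, 14.6 and 47.6 FPKM at exp days 0 to 12, 169, 9.99 and 11.2 at day 16 and 147 at day 20, against at most 0.153 in ctl. Its level stayed between 0.289 and 0.437 of that of Upk3b in all 8 exp libraries.

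Msln, which encodes the cell surface protein mesothelin (ID 56047; chromosome 17 from 25885559 to 25891272, minus strand), was the member at the same level in ctl. The ctl libraries had 84.8 FPKM at day 0, 89.9, 103 and 94.6 at days 5 to 12, 104, 117 and 121 at day 16 and 104 at day 20, a range of 1.42-fold. The exp libraries had 78.3, 58.1, 38.3 and 44.5 FPKM at days 0 to 12, 131, 15.3 and 20.7 in the day 16 replicates and 105 at day 20. Exp was therefore near ctl at days 0 and 20 and in replicate 1, and below it at days 5 to 12. It was far below ctl in replicates 2 and 3, where ctl had its highest levels. Msln in exp moved with the other members, while Msln in ctl was high and steady in cells with almost no Upk3b, Lrrn4 or Wt1 mRNA.

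**Figure D1:**
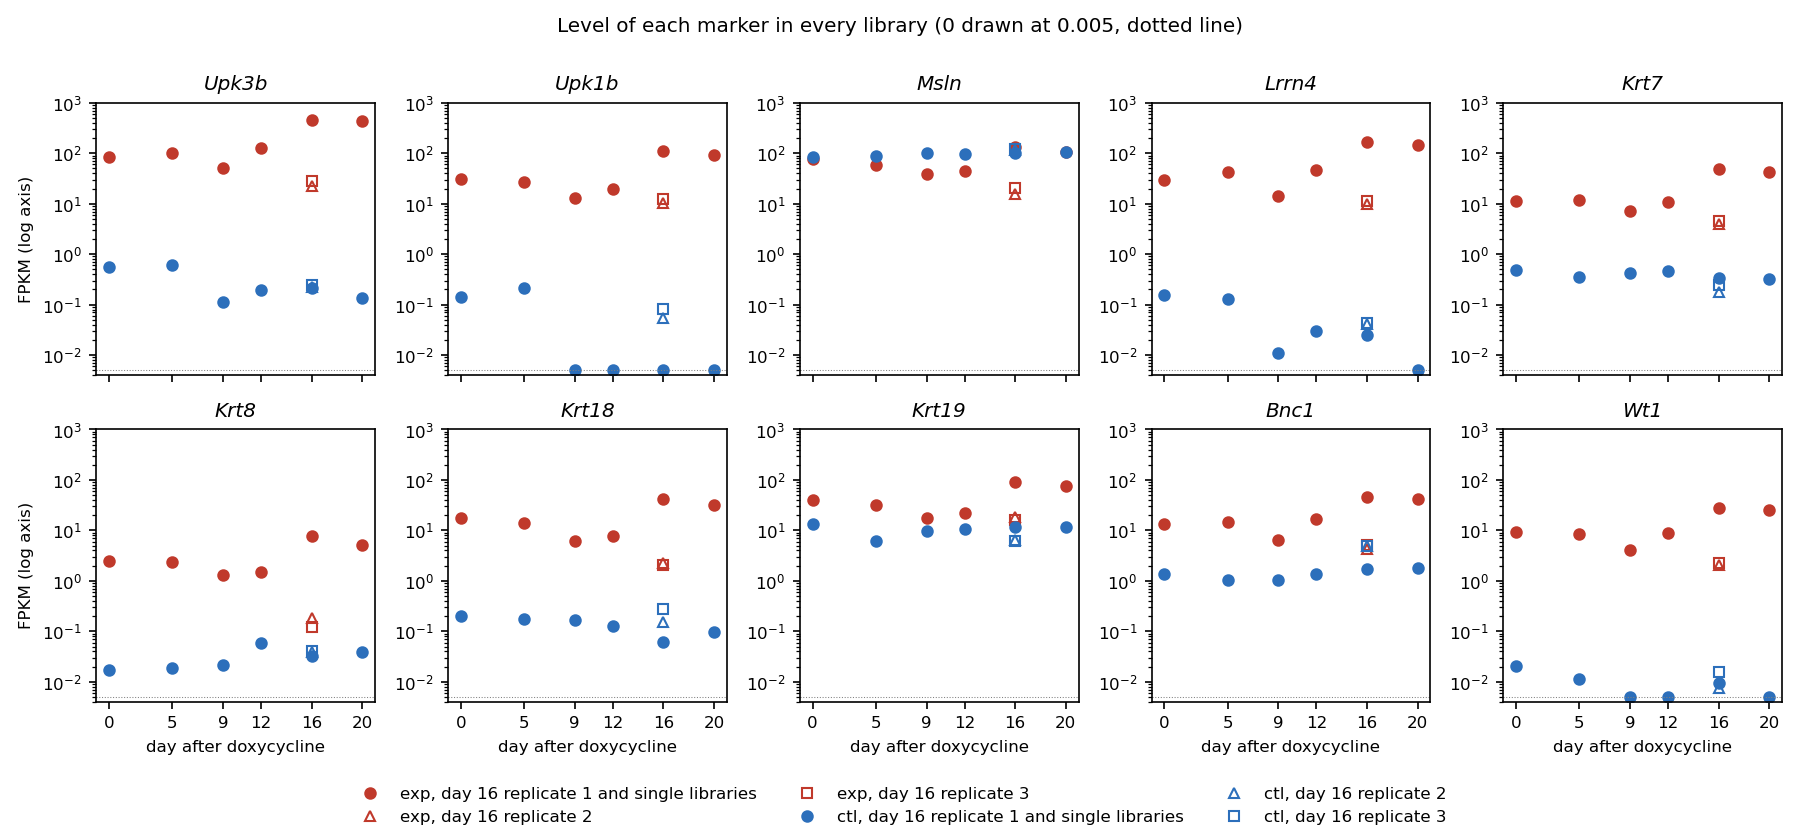
FPKM of the 10 markers (log axis) against days after doxycycline in the exp line (red) and the ctl line (blue), with day 16 replicates 2 and 3 as open triangles and squares and values of 0 drawn at 0.005. Exp replicate 1 and day 20 were the highest exp libraries in every panel, and Msln, Krt19 and Bnc1 were also present in ctl.

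Among the keratins, Krt7 (ID 110310; chromosome 15 from 101241474 to 101260744, plus strand) had 11.5, 11.8, 7.08 and 10.7 FPKM at exp days 0 to 12. It had 47.8, 4.0 and 4.64 in the day 16 replicates and 41.8 at day 20. In ctl it stayed between 0.178 and 0.492 FPKM, below every exp library.

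Krt8 and Krt18, the pair typical of simple epithelia, had the widest ranges but unequal levels. Krt18 (ID 16668; chromosome 15 from 101858647 to 101862457, plus strand) had 17.7, 14.3, 6.07 and 7.74 FPKM at exp days 0 to 12, 41.5, 2.27 and 2.03 in the day 16 replicates and 31.9 at day 20. Krt8 (ID 16691; chromosome 15 from 101827142 to 101834773, minus strand) was lower throughout, with 2.47, 2.32, 1.29 and 1.53 FPKM, then 7.76, 0.183 and 0.119, then 5.06. The ratio of Krt18 to Krt8 was 4.70 to 7.14 in the other exp libraries, and 12.4 and 17.0 in replicates 2 and 3, where Krt8 had only 13 and 9 reads. In ctl Krt8 had 1 to 3 reads per library and Krt18 3 to 16. The mouse genome holds processed copies of these keratin genes, and how the authors counted reads that fit several places is not given in the sources used here.

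Krt19, a type I keratin without a tail domain (ID 16669; chromosome 11 from 100002124 to 100009979, minus strand), was the keratin of the set that ctl also expressed. The exp libraries had 39.8, 31.3, 17.7 and 22.3 FPKM at days 0 to 12, 92.5, 18.8 and 16.1 at day 16 and 76.7 at day 20. The ctl libraries had 13.3, 6.28, 9.79 and 10.4 FPKM, then 11.5, 6.53 and 6.08, and finally 11.9. It had the narrowest exp range of the 10 genes, 5.74-fold, and the lowest exp library (16.1) stood just above the highest ctl library (13.3).

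The transcription factor genes moved like the surface markers. Wt1, a zinc finger regulator of the developing mesothelium, kidney and gonad (ID 22431; chromosome 2 from 104966686 to 105013773, plus strand), had 9.51, 8.64, 4.02 and 8.80 FPKM at exp days 0 to 12. It had 28.2, 2.10 and 2.26 at day 16 and 24.9 at day 20, and at most 2 reads in any ctl library. Bnc1, which encodes the zinc finger protein basonuclin 1 (ID 12173; chromosome 7 from 89111558 to 89137185, minus strand), had 13.3, 14.7, 6.51 and 17.2 FPKM, then 46.9, 4.25 and 5.22, then 42.8. In ctl Bnc1 had 1.05 to 1.80 FPKM outside replicates 2 and 3 and 4.95 and 4.87 in those. Bnc1 was therefore high in ctl replicates 2 and 3 and low in exp replicates 2 and 3, and there the lines overlapped.

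Across the 8 exp libraries the 10 genes had nearly the same high and low libraries. Day 16 replicate 1 and day 20 were the 2 highest libraries for 10 of 10 members, a pattern held by 6.37% of the 12579 genes with a mean of at least 1 FPKM in exp. Replicates 2 and 3 were the 2 lowest for 9 of 10, against 18.8% of genes, the exception being Krt19, whose day 9 value lay below replicate 2. The same 9 members held both patterns, against 2.46% of genes. Day 9 was the lowest of days 0, 5, 9 and 12 for 10 of 10, against 25.0% of genes. Replicate 1 exceeded day 20 for 10 of 10, against 47.6%. The members were listed for moving between these libraries, so nothing is read from these counts.

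**Figure D2:**
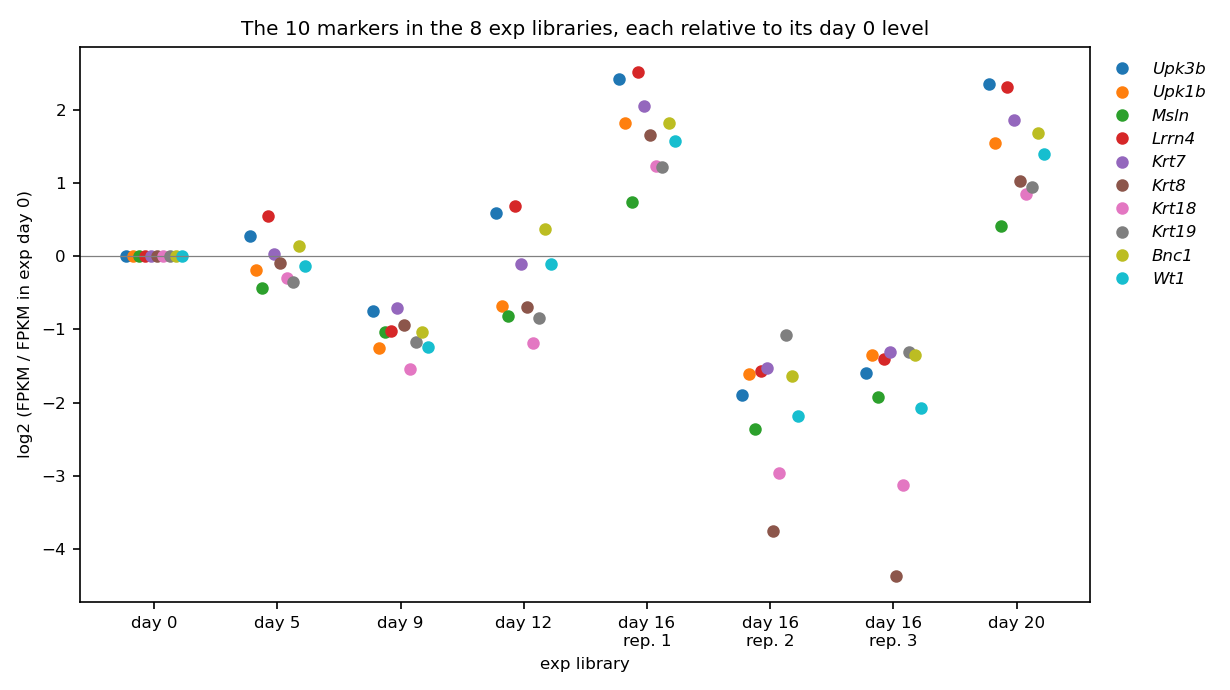
log2 ratio of each marker's FPKM to its exp day 0 value (vertical axis) in the 8 exp libraries (horizontal axis), 1 colour per gene. All 10 genes stand above 0 in day 16 replicate 1 and day 20 and below 0 in day 9 and in day 16 replicates 2 and 3, where Krt8 and Krt18 are lowest.

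On log2(FPKM + 1) all 45 pairs of members had a Pearson correlation above 0.9 over the 8 exp libraries, with a median of 0.958 and a lowest value of 0.904 for Msln and Krt19. The median Spearman coefficient was 0.929. The libraries are of 1 line and share their scaling, and they do not form an even series, so these values describe the libraries. Without replicate 1 and day 20, the libraries farthest from the median of Upk3b, the median Pearson value was 0.931 and the lowest 0.668 (Upk3b and Krt19). Without replicates 2 and 3 the median was 0.965 and the lowest 0.851. In the 4 libraries of days 0 to 12 the median was 0.828 and the lowest 0.309 (Upk3b and Msln), so the agreement was looser among them. Upk3b, Lrrn4 and Bnc1 were higher at day 12 than at day 0, whereas the other 7 were lower.

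The members differed in how far they moved. Between replicate 1 and the mean of replicates 2 and 3 in exp, the fold was 51.3 for Krt8, 19.3 for Krt18, 17.9 for Upk3b, 16.0 for Lrrn4 and 13 for Wt1. It was 11.1 for Krt7, 9.90 for Bnc1, 9.79 for Upk1b, 7.31 for Msln and 5.30 for Krt19. All 10 were at least 4-fold higher in replicate 1, as were 1.71% of the 12579 genes, and 0.588% were at least 4-fold lower. In ctl the same comparison gave 1.83 for Krt19, 0.872 for Msln and 0.350 for Bnc1, the 3 members with a mean of at least 1 FPKM there. Of 12386 genes in ctl, 0.161% were at least 4-fold higher in replicate 1 and 3.36% differed at least 2-fold in either direction, Bnc1 among them. Exp replicates 2 and 3 were the most deeply read exp libraries, with 39286716 and 41814820 reads in genes against 29847904 in replicate 1. In bulk RNA, fewer marker-bearing cells and less marker RNA per cell cannot be told apart.

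**Figure D3:**
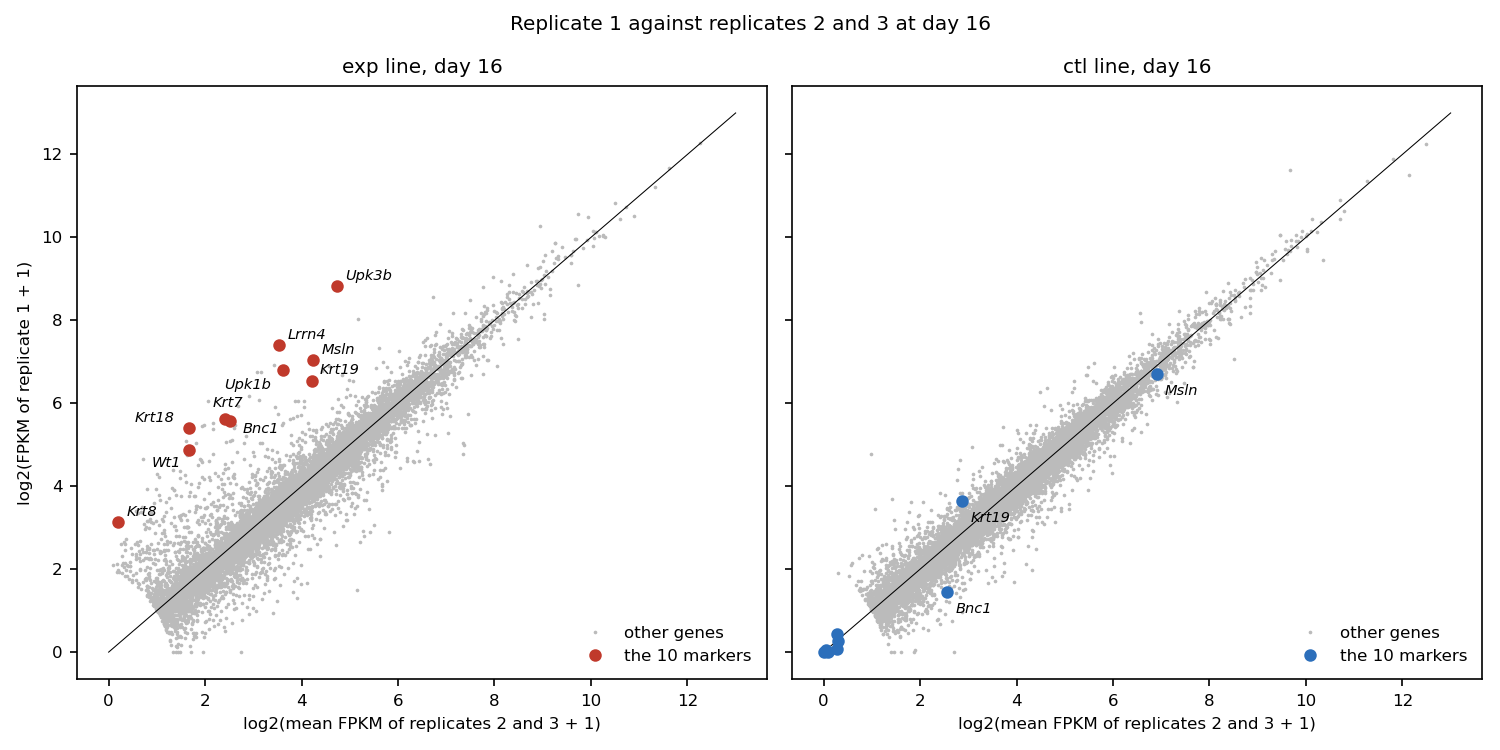
log2(FPKM + 1) in day 16 replicate 1 (vertical axis) against log2 of the mean FPKM of replicates 2 and 3 plus 1 (horizontal axis) for genes with a mean of at least 1 FPKM, in exp (left) and ctl (right), with the line of equal values. The 10 markers (large points) lie above the line in exp. Their ratios of 5.30-fold to 51.3-fold are of FPKM without the added 1, so the distances drawn are smaller. In ctl Msln lies near the line and Bnc1 below it.

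Between the lines, 8 of 10 members had all 8 exp libraries above all 8 ctl libraries, against 5.5% of the 12559 genes with a mean of at least 1 FPKM. The exceptions were Msln and Bnc1, and without replicates 2 and 3 of both lines Bnc1 no longer overlapped (9 of 10, against 11.4% of genes). In the 3 day 16 libraries of each line alone the count was 8 of 10, against 15.5% of genes. The difference was there before doxycycline: at day 0 exp exceeded ctl by 5.79 log2 for Upk3b, 4.82 for Upk1b, 4.73 for Lrrn4, 3.96 for Krt18, 3.36 for Wt1 and 3.07 for Krt7, on the log2(FPKM + 1) scale, which understates changes of low genes. Bnc1 differed by 2.59, Krt8 by 1.77, Krt19 by 1.51 and Msln by -0.11. There is 1 library per line at that day and no replicate check.

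At day 16 the means over 3 replicates spanned this split. The mean of Upk3b was 169 ± 248 FPKM in exp (SD, n = 3), with the SD above the mean, and 0.224 ± 0.016 FPKM in ctl (SD, n = 3). Msln had 55.8 ± 65.6 in exp and 114 ± 8.94 in ctl, and Krt19 42.5 ± 43.4 and 8.05 ± 3.02. In limma on log2(FPKM + 1), 2 of the 10 members, Upk3b and Upk1b, were past the threshold of an adjusted p under 0.05 and higher in exp, against 3.1% of 12533 genes higher, 3.01% lower and 6.1% in either direction. All 10 passed the filter of a mean of 1 FPKM, but 7 of them only through exp, and the choice of members used this contrast, so the count supports nothing. The fitted differences (exp minus ctl, log2, ± SE) were 5.80 ± 1.12 for Upk3b, 4.77 ± 1.05 for Lrrn4, 4.61 ± 0.87 for Upk1b and 3.15 ± 0.87 for Krt7. They were 2.72 ± 0.87 for Wt1, 2.69 ± 1.02 for Krt18, 1.86 ± 0.67 for Krt19, 1.35 ± 0.89 for Bnc1, 1.13 ± 0.80 for Krt8 and -1.67 ± 0.77 for Msln. The median of the 10 was 2.71, beside -0.0074 over all genes tested. Without exp replicate 1 the count was 5 of the 7 members that then passed the filter (Upk3b, Upk1b, Lrrn4 and Krt7 higher, Msln lower; Krt8, Krt18 and Wt1 not tested), and it was 0 without any other single day 16 library.

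The line difference also depended on the replicate number. For Wt1 it was 4.86 log2 between the libraries numbered 1 and 1.65 in those numbered 2 and 3. The corresponding values were 7.37 and 3.47 for Lrrn4, 5.18 and 2.13 for Krt7, 5.32 and 1.37 for Krt18, and 3.09 and 0.15 for Krt8. For Bnc1 they were 4.14 and -0.05, and for Msln 0.34 and -2.67. Msln thus changed direction between the replicate sets, Bnc1 was near 0 in the second, and the other 8 members were higher in exp in each. At day 20 the differences were close to the replicate 1 pair: 8.58 for Upk3b, 4.70 for Wt1, 3.97 for Bnc1 and 0.01 for Msln.

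No member had a slope over days that passed in limma, in exp, in ctl or as a difference between the lines. The exp slopes and slope differences use the exp libraries on which the members were listed, and 7 of the 10 passed the filter only through exp, so these values are descriptions too. The slope difference per 20 days ran from -0.77 ± 1.29 log2 for Msln to 1.44 ± 1.84 for Upk3b. Of 12559 genes, 0.207% were called (0.183% higher and 0.0239% lower). The exp slope was 0.98 ± 1.22 for Upk3b, 1.06 ± 1.16 for Lrrn4 and -0.36 ± 0.82 for Msln, and 4.95% of genes were called in that fit (1.36% higher and 3.59% lower; 622 genes, or 1036 with the replicate number as a block, and 0 members in either). The ctl slope was 0.41 ± 0.82 for Msln, -0.17 ± 0.79 for Krt19 and 1.02 ± 1.01 for Bnc1 (limma adjusted p = 1.00 for each), and 0.0% of genes were called. At an unadjusted p under 0.05 there was also no member, against 1388 genes for the slope difference, 203 for ctl and 2961 for exp, and limma voom on recovered reads called 0 members in each of these fits. SEs of the members' slopes within a line ran from 0.79 (Krt19) to 1.22 (Upk3b). An SE is not a detection limit: in ctl even the gene Prg4, at -0.76 ± 0.19 log2, was not called. Member changes over 20 days of several times their SE could therefore also go undetected. Without replicates 2 and 3 of both lines, the exp slope was 2.77 for Upk3b, the only member then called, 2.69 for Lrrn4, 2.17 for Krt7 and 2.01 for Bnc1. The late libraries left in that fit are those where the members were high, so nothing is read from this call.

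Other mesothelial genes were taken from a list of 22 further markers, also drawn up with earlier results known. Of these, Muc16 is not analysed here, and 17 of the other 21 had a mean of at least 1 FPKM in exp. Calb2, the calcium-binding protein calretinin and a widely used mesothelial marker, was listed at 0 in all 16 libraries, and Slpi, Dmkn and Fgf9 stayed below 1 FPKM. Of the 17, 10 were at least 4-fold higher in exp replicate 1 than in replicates 2 and 3, none was 4-fold lower, and the median was 2.78 log2, beside -0.0345 over the 12579 genes. Gpm6a, a membrane glycoprotein, had 36.3, 40.9, 15.8 and 37.5 FPKM at exp days 0 to 12, 120, 9.42 and 10.0 at day 16 and 108 at day 20, against at most 0.107 in ctl. Efemp1, the matrix protein fibulin 3, moved the same way in exp (65.8 FPKM in replicate 1, 14.1 and 14.5 in replicates 2 and 3) but was higher in ctl, at 93.9 to 132. Pdpn, the membrane protein podoplanin, moved less, from 81.3 to 52.1 and 48.7, with 17.4 to 22.4 in ctl. Tbx18, a T-box regulator of mesothelial progenitors, went from 34.5 to 18.7 and 17.9, with 10.5 to 15.2 in ctl. At day 16, 3 of 17 list members were higher in exp in limma, Pdpn, Gpm6a and Prg4, and none was lower, against 3.1% and 3.01% of all genes tested. None passed in any of the 3 slope fits.

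Genes of epithelial junctions were mostly at low levels. Of 28 junction genes and regulators, 10 had a mean of at least 1 FPKM in exp. Cdh1, which encodes E-cadherin, had 0.713 to 1.54 FPKM in exp and 1.08 to 1.55 in ctl, and Epcam did not exceed 0.357 in exp. Dsp, the desmosome protein desmoplakin, had 4.90 FPKM in exp replicate 1 and 0.626 and 0.845 in replicates 2 and 3. Jup, plakoglobin, had 37.6, 24.0 and 24.7 FPKM in these libraries, and Cdh3, P-cadherin, which is on both lists, had 59.6, 14.7 and 16.7. The protease inhibitor genes Spint1 and Spint2 had 13.3, 3.10 and 3.40, and 8.44, 3.97 and 3.72. The median of the 10 genes was 1.53 log2 between replicate 1 and replicates 2 and 3, with 4 at least 4-fold higher and none lower, against 1.71% and 0.588% of all genes and an all-gene median of -0.0345. None of 9 tested passed between the lines at day 16, and none of 10 in a slope fit.

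The leading mesenchymal genes were abundant in each exp library. The 17 genes of this list had a median of -0.124 log2 between exp replicate 1 and replicates 2 and 3, with 2 at least 2-fold higher (Cdh11 and Col3a1) and none 2-fold lower, where 4.21% and 3.51% of genes were. Cdh11 had a correlation of 0.942 with Upk3b over the exp libraries and Col3a1 0.763. Vim, vimentin, which correlated at -0.846, had 1470 FPKM in replicate 1 and 1980 and 1820 in replicates 2 and 3. Fn1, fibronectin, had 387, 541 and 596, Col1a1, a type I collagen chain, 1120, 1000 and 1150, and S100a4, a calcium-binding protein of fibroblasts, 712, 641 and 627. At day 16, 3 of 17 were higher in exp (Col3a1, Snai2 and Thy1) and 2 lower (S100a4 and Pdgfra) in limma, against 3.1% and 3.01% of all genes tested. In the exp slope fit Fn1 and Col1a1 rose and S100a4 fell, where 1.36% of genes rose and 3.59% fell, and none of the 17 passed in the other slope fits.

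**Figure D4:**
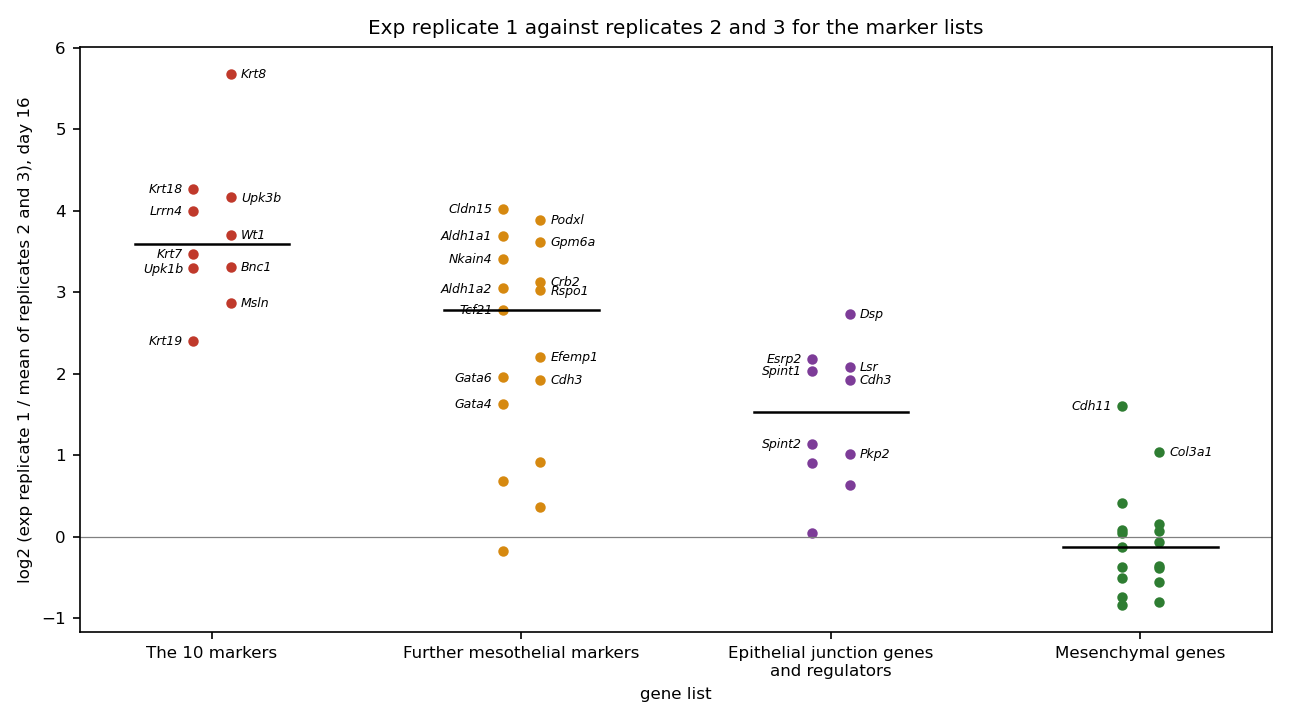
log2 ratio of FPKM in exp day 16 replicate 1 to the mean of replicates 2 and 3 (vertical axis) for the 10 markers and for members of 3 gene lists with a mean of at least 1 FPKM in exp, 1 point per gene, bars at the medians. The markers lie between 5.30-fold and 51.3-fold, the further mesothelial markers have a median of 2.78 and the mesenchymal genes one of -0.124.

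The labelled cell type and other cell types were checked by summed marker levels. The 9 fibroblast markers summed to 4410 to 5220 FPKM in exp and 3900 to 4070 in ctl, with 9 and 8 of them at a mean of at least 1. The exp day 16 replicates summed to 4560, 4520 and 4530, beside 1130, 89.9 and 103 for the 10 mesothelial and simple-epithelial markers. Most of the fibroblast sum was Vim, Col1a1 and S100a4, and it hides single markers that moved in opposite directions. Col3a1 had 449, 220 and 215 FPKM in exp day 16 replicates 1, 2 and 3, and Pdgfrb 32.2, 56.0 and 56.0. The sum also hides differences between the lines. Col1a2 ran from 373 to 721 FPKM in exp and from 80.4 to 103 in ctl. Pdgfra went the other way, with 15.2 to 31.0 in exp and 47.7 to 59.2 in ctl. For the bladder lining, 7 of 8 markers stayed below 1 FPKM in all libraries, Upk1a, Upk2, Upk3a and Krt5 among them, and the sums were 1.33 to 4.96 in exp and 1.90 to 4.61 in ctl. For stratified epithelium, 5 of 7 stayed below 1, with Krt1 and Dsg3 at 0, but Krt14 had 107 FPKM in exp replicate 1, 5.71 and 9.11 in replicates 2 and 3 and at most 0.217 in ctl, which gave the list sums of 9.65 to 111 in exp and 3.08 to 4.26 in ctl. Of 54 keratin genes in the files, 7 reached 1 FPKM in any library: the 4 members and Krt14, Krt10 and Krt80, whose correlations with Upk3b over the exp libraries were 0.958, -0.0403 and -0.0815. Of 6 uroplakin genes only Upk3b and Upk1b did.

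Endothelial markers stayed below 1 FPKM in every library (6 of 6, sums of 0.569 to 1.60 in exp and 0.592 to 0.942 in ctl), and so did 5 of 6 leukocyte markers, Cd68 being the other (2.67 to 6.11 and 4.76 to 6.46; Cd3e at 0). Of 8 trophoblast markers 6 stayed below 1 (1.28 to 4.99 and 0.554 to 0.965), and of 6 extraembryonic endoderm markers 5, with Sox17 and Ttr at 0 (0.740 to 4.37 and 0.128 to 0.353). Both sums were higher in exp replicate 1 and at day 20 than in replicates 2 and 3, as the members were. In replicates 1, 2 and 3 and at day 20 the trophoblast sums were 4.72, 1.28, 1.61 and 4.99. The endoderm sums were 4.37, 0.811, 0.740 and 3.55. Of 4 markers of gonad supporting cells, Foxl2 and Nr5a1 stayed below 1, and the sums were 3.63 to 9.77 and 7.65 to 15.2. The 4 smooth muscle markers, with 3 expressed and Myh11 below 1, summed to 188 to 674 FPKM in exp, with 474 in replicate 1 and 674 and 621 in replicates 2 and 3, and to 172 to 368 in ctl. The part of any of these cell types in the marker levels was not tested.

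Genes with profiles most and least like that of Upk3b in exp were also listed. Among 241 genes with a mean of at least 1 FPKM, a highest value of at least 5 and a log2 range of at least 2 in exp, the 8 highest Pearson correlations with Upk3b over the 8 exp libraries were 0.995 to 0.998. They belonged to Tmem108, Cobl, Crb2, Podxl, Aldh1a2, Ddit4l, Smtnl2 and Ildr2. Crb2, Podxl and Aldh1a2 are on the list of further mesothelial markers and the others are not. That list was drawn up with earlier results known, so nothing is read from their place here. Tmem108, a transmembrane protein gene, had 42.9 FPKM in replicate 1, 2.62 and 3.03 in replicates 2 and 3 and 40.1 at day 20. Podxl, the surface sialoprotein podocalyxin, had 43.6, 2.78, 3.09 and 42.5, and Aldh1a2, an enzyme of retinoic acid synthesis, 41.6, 4.64, 5.43 and 45.1. Crb2, a cell polarity protein, had 24.0, 2.48, 3.0 and 23.0. Of the 12569 other genes with a mean of at least 1 FPKM, 2.5% reached 0.9 with Upk3b.

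The 4 lowest correlations were those of Alkal1, a receptor ligand (-0.843), Plin4, a lipid droplet protein (-0.830), Tmem26 (-0.76) and Col2a1, the type II collagen chain (-0.749). They were highest in exp replicates 2 and 3: Alkal1 had 12.7 and 13.4 FPKM there and 1.72 in replicate 1, and Col2a1 6.82 and 6.30 beside 0.881. Alkal1 was also high in ctl replicates 2 and 3 (12.4 and 12.2, with 2.84 in ctl replicate 1), while Plin4 (3.16 and 3.72, with 3.54) was not.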

How the data were processed

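Polyadenylated RNA of 16 samples from 2 cell lines was sequenced. Titles give each sample's line and day. The deposited values are FPKM per gene, per the file headers, 1 file per library with 24485 gene IDs. Per the submitters' processing notes, Bowtie2 2.2.3 and build mm9 were used. How reads were assigned to genes, with which gene models and whether by strand, is not given in the sources used here. Symbols were matched for 24416 IDs through a RefSeq gene table, and mm9 coordinates are from GENCODE vM1.

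Steps between a gene's FPKM values gave back whole reads for 18966 of the 18966 genes with reads in at least 2 libraries (tolerance 0.001 read, largest distance 0.000483). These gave 18121520 to 42486438 reads in genes per library and served limma voom as an alternative. The main tests were limma's two-sided moderated tests (limma 3.58.1, R 4.3.3, statmod 1.5.0) on log2(FPKM + 1) with trended, robust variances. Genes needed an average FPKM of 1, and p-values were Benjamini-Hochberg adjusted over all of them, with a threshold of 0.05. The day 16 fit used 6 libraries. The slope difference used 16 libraries with day as a factor, and slopes within lines came from a joint fit. Recovery, the day 16 fit and the slope-difference fit were run on simulated data, which did not hold the split between day 16 replicates. The slope fits within a line were not run on simulated data.

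Replicates 2 and 3 were not the same library: chi-square per degree of freedom of their reads was 9.15 in exp and 3.96 in ctl. Deviations of the day 16 samples from their line means correlated at 0.381, 0.272 and 0.333 for equal numbers 1, 2 and 3. Exp 3 with ctl 2 correlated at 0.398 and exp 2 with ctl 3 at 0.209, so this sets number 1 apart but does not tell 2 from 3. The main fits, with their SEs and calls, did not pair the samples by number. A replicate block was run only as an alternative. Members and gene lists were chosen with earlier results of these data known. Genes named are the members, Sdhc, list genes with the highest means, the 8 and 4 genes most and least like Upk3b, and Krt and Upk genes reaching 1 FPKM; genes below the floor, called list genes and single exceptions were named after their values were seen. Alternatives were other pseudocounts, filters, scaling, limma voom, a replicate block and left-out libraries. A list of markers of another cell type is not reported here.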

Additional observations from a re-analysis of the deposited data

How the results depend on the processing

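The count of 2 members called at day 16 depended on the processing. It was 5 with a pseudocount of 0.1 (Lrrn4, Krt7 and Wt1 added), and 0 with a pseudocount of 5, with no filter on low values and with limma voom on recovered reads. Over all genes, 765 (6.1%) were called in the main fit, and 819 and 700 with pseudocounts of 0.1 and 5. The gene count was 733 with no filter, 811 with limma voom, 747 with median-of-ratios rescaling and 1023 with the replicate block. As in the main fit, the member counts support nothing. The member count ran from 0 to 5 with 1 replicate left out, with 5 of 7 tested without exp replicate 1. The count of genes then ran from 197 (without ctl replicate 3) to 1599 (without exp replicate 1), against 765. In replicates 2 and 3 alone, an alternative chosen after seeing the data, 8 members (with Msln lower) and 4326 genes were called; Bnc1 was not, and Krt8 was below the filter and not tested. The cause of these changes was not tested.

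The slope difference was called for 26 genes, for 2 (without exp replicate 2) to 35 (without exp replicate 1) with 1 replicate left out, for 2 without day 16 replicates 2 and 3 of both lines and for 1 without day 0. The ctl slope, called for 0 genes, gave 0 to 2 (without exp replicate 2) with 1 replicate left out and 1 without day 16 replicates 2 and 3. The exp slope, called for 622 genes, gave 249 (without exp replicate 1) to 466 (without ctl replicate 2) with 1 replicate left out, 411 with median-of-ratios rescaling and 9 without day 0. Without day 16 replicates 2 and 3, 1 member (Upk3b) passed. With the replicate number as a block, the exp slope gave 1036 genes and the ctl slope 1; the block left 2 members called at day 16 and 0 in each slope fit. The median correlation of members was 0.929 with Spearman's coefficient, against 0.958 with Pearson's. Genes with a few reads per ctl library (Krt8, Wt1) limit the line differences by depth. The same holds for Upk1b, Lrrn4 and Krt18, with at most 11, 17 and 16 reads in any ctl library.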

Other observations

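Some genes from the lists of other cell types did not overlap between the lines at low levels, and this was not tested. They were picked after their values were seen, and nothing is read from them. Others of the same lists overlapped, among them Plac1 (0.262 to 3.49 FPKM in exp, 0.176 to 0.743 in ctl) and Trp63 (0.293 to 0.647 and 0.142 to 0.368). Among genes with a mean of at least 1 FPKM, 5.5% had all 8 exp libraries above all 8 ctl libraries. Of the genes named next, that share covers only Foxa2. Hand1, Eomes and Krt15 were below that mean, and no share was computed at their level. Foxa2, a forkhead regulator of endoderm, ran from 0.585 to 4.35 FPKM in exp and from 0.0363 to 0.224 in ctl. Foxa2 was tested only in the slope fits, where it was not called. Hand1, a regulator of lateral mesoderm and trophoblast, ran from 0.322 to 1.74 in exp and stayed at or below 0.0124 in ctl. Eomes, from the trophoblast list, ran from 0.654 to 0.825 in exp and from 0.177 to 0.339 in ctl. Krt15, from the stratified epithelium list, ran from 0.118 to 0.697 in exp and reached at most 0.0544 in ctl.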
